A study of Mus musculus with 31 samples.

Results

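Aminoacyl-tRNA synthetases join each amino acid to its tRNA and so supply every ribosome of the cell. Cytosolic and mitochondrial protein synthesis mostly use separate enzymes, encoded by separate nuclear genes, and the symbols of the mitochondrial ones end in 2. Some cytosolic enzymes sit together with scaffold proteins in a large multisynthetase complex, and others are free-standing. The members were all genes whose symbol has the form of a synthetase name, among rows of the deposited table that carry 1 gene symbol. This gave 34 of the 19938 genes measured: 18 cytosolic and 16 mitochondrial enzymes. Iars alone had 2 rows, and the row with the higher mean was used. Aars shares its row with another gene, and Dars matched no row with 1 symbol, so these are not analysed here. Kars and Gars, counted here as cytosolic, are known to serve both compartments.

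The samples were mouse embryonic fibroblasts, primary cells that a few transcription factors can turn into induced pluripotent stem cells. Retroviruses carried Oct4, Sox2, Klf4 and c-Myc (4F), or Oct4, Sox2 and Klf4 without c-Myc (3F), or GFP as a control, and the day 0 cells had received no virus. RNA of whole cultures was measured on 31 single-colour arrays. Day 0 has 2 arrays. The 4F arm has 2 at each of days 1, 2, 3, 4, 5, 6 and 8 and a single one at 10 and 12. The GFP arm has 2 at each of days 1, 3, 5 and 8 and a single one at 12, and the 3F arm a single one at 3, 5, 8 and 12. The cells grew in DMEM with foetal bovine serum, and the labels give no strain, age or share of infected cells. Replicates are called biological, but nothing says that they were separate cultures, and if they were not, the p-values measure technical spread. In the 3F arm 1 label counts 4 factors while listing 3, and the title is followed here. In such bulk RNA, fewer cells of a type and less RNA per cell cannot be told apart.

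Values are log2 signals, and differences between groups are given on that scale. A call means that the limma p, adjusted after Benjamini and Hochberg across the 19938 genes, was under 0.05. The error given with a difference is its standard error. Shares of all genes refer to such calls, and no share is given for an unadjusted p. Labelling of the replicate 1 arrays used 120 ng of RNA, that of the others used 300 ng, and replicates correlated across genes with r from 0.974 to 0.993. On day 0 the mean over 8 fibroblast markers was 10.36 and 10.47 in the 2 arrays, and that over 7 pluripotency markers 5.47 and 5.54. The pluripotency means were 6.59 and 7.66 in the 4F arrays of day 8, and those over 6 epithelial markers 6.35 and 8.07, so these arrays stood apart from each other. The part of this in the differences of day 8 was not tested. Of the delivered genes, Pou5f1 (Oct4) and Sox2 were higher in 4F than in GFP on day 8 (3.62 ± 0.40 and 2.07 ± 0.33), while Klf4 was lower (-0.92 ± 0.26), Myc was not called (-0.99 ± 0.76), and Myc was at -1.48 ± 0.50 in 4F against 3F. Nothing in the labels tells whether these probe sets read the viral copies, so the arms rest on their labels. The number of arrays limits the precision. Signals of different probe sets have no common scale, so only differences are compared between enzymes. Mean signals ran from 8.39 (Farsa) to 10.87 (Nars) in the cytosolic class and from 5.88 (Pars2) to 8.31 (Tars2) in the mitochondrial one. The part of signal level in the differences between the classes was not tested.

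The median of the cytosolic enzymes stayed near its day 0 level in the 4F arrays up to day 8 and was far below it in GFP by day 8. Some of them, Nars, Rars and Tars among them, were called lower than day 0 in 4F too. None of these calls in 4F held when each array was left out in turn. The median of the mitochondrial enzymes lay above day 0 in the 4F arrays of these days and was less far below it in GFP. Each enzyme was set against its own day 0 mean, and the median over a class was taken in each array. For the 18 cytosolic enzymes this median was -0.30 and 0.00 in the GFP arrays of day 5, -0.91 and -0.87 on day 8, and -0.91 in the array of day 12. In 4F it was -0.11 and -0.14 on day 5, -0.07 and -0.15 on day 8, -0.36 on day 10 and -0.49 on day 12. The 4F arrays thus lay between the GFP arrays on day 5 and far above them on day 8. For the 16 mitochondrial enzymes the GFP arrays gave 0.02 and -0.12 on day 5, and -0.13 and -0.33 on day 8. In 4F their median was 0.41 and 0.11 as early as day 2, 0.35 and 0.18 on day 5, and 0.29 and 0.01 on day 8. The mitochondrial median exceeded the cytosolic one in all 16 of the 4F arrays, by 0.01 to 0.54, and in each 3F array, by 0.16 to 0.54. In GFP this gap was -0.04 and -0.02 on day 1, 0.07 and 0.18 on day 3, and 0.31 and -0.12 on day 5. It was 0.77 and 0.54 in GFP on day 8 and 0.67 on day 12, so the order was not particular to 4F.

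**Figure D1:**
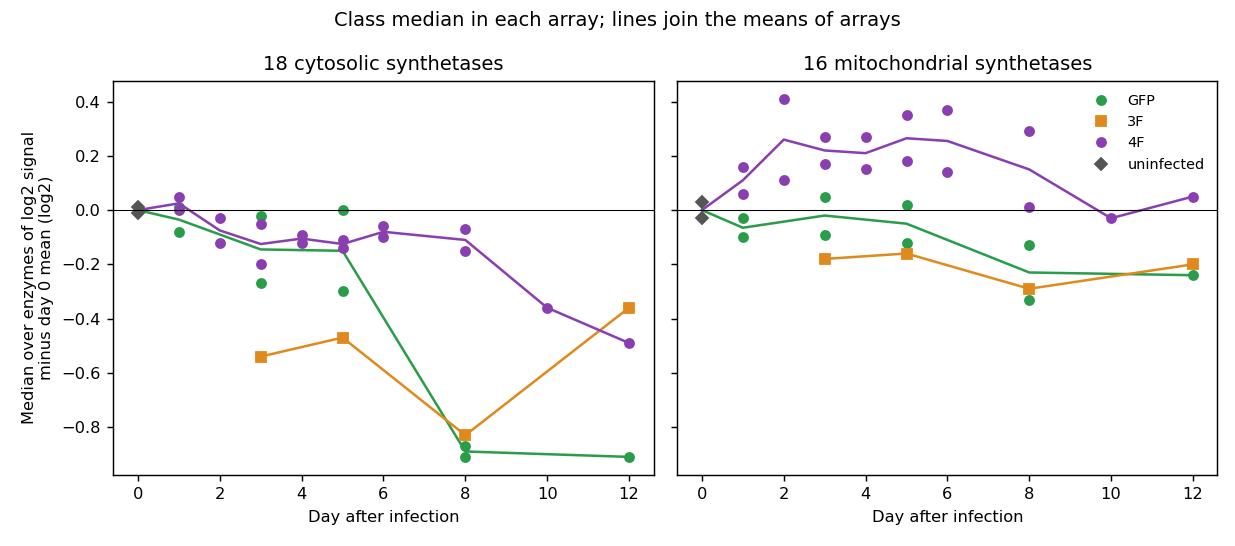
Median log2 signal of the 18 cytosolic (left) and 16 mitochondrial (right) synthetases relative to each enzyme's day 0 mean, against day after infection. Each point is 1 array and lines join the means of arrays; the GFP arrays of day 8 sit at -0.91 and -0.87 on the left and at -0.13 and -0.33 on the right.

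The first question was which enzymes differed between 4F and GFP cells on the same day. On day 1 a single member was called, the mitochondrial asparaginyl enzyme Nars2, and higher calls made up 1.42% of all genes (lower, 0.391%). On day 3 there were 4 members higher (Kars, Nars2, Rars2 and Sars2) and none lower, where 6.28% of all genes were called higher and 5.65% lower. At an unadjusted p under 0.05, 4 were lower on day 3 and 0 on day 1. On day 5 there were 11 higher and 3 lower, against 10.5% and 10.9% of all genes. The lower ones were Nars, Sars and Tars, all cytosolic. They made up a smaller share of the members than lower calls did of all genes, so their number is not read as a result. On day 8 there were 23 higher and none lower (also 0 at an unadjusted p under 0.05), against 14.5% and 13.0% of all genes. They comprised 13 of 18 cytosolic and 10 of 16 mitochondrial enzymes. With the replicate number as a block the count rose from 1 to 5 on day 1 (all genes, 4.63% in either direction), adding Farsb, Kars, Mars2 and Yars2 (adjusted p 0.016 to 0.04). It rose from 4 to 9 on day 3 (all genes, 18.8%), adding Iars2, Lars2 and Qars higher and Nars and Tars lower (adjusted p 0.018 to 0.041). None of the calls of days 1 and 3 without the block held when each of the 4 arrays was left out in turn (0.45 to 0.64 without 1 of them for Nars2 on day 1, and 0.35 to 0.43 for the 4 of day 3). On day 5 those of Farsb, Kars, Rars2 and Yars2 held, and those of Iars2, Lars2, Mars2, Nars2 and Sars2 did not without 4F replicate 1 or GFP replicate 2, nor those of Iars2, Mars2 and Sars2 without GFP replicate 1 (0.25 to 0.68 where lost).

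The medians show how the classes differed in their course. The cytosolic median of the 4F minus GFP difference was 0.12 on day 1, -0.04 on day 3, -0.12 on day 5 and 0.67 on day 8. The mitochondrial one was 0.19, 0.25, 0.37 and 0.57 on these days. Over all genes the median difference lay between -0.03 and -0.01. Within the replicate 1 arrays the cytosolic median was -0.08, -0.26, 0.14 and 0.69, and within the replicate 2 arrays 0.20, 0.15, -0.12 and 0.65. Its sign up to day 5 therefore differed between the labelling sets, and on day 8 it did not. With quantile normalization the cytosolic median was 0.06 on day 3 and 0.01 on day 5. The mitochondrial median was positive within both sets on all 4 days, at 0.17 to 0.58.

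Averaged over days 1, 3, 5 and 8, 13 of 16 mitochondrial and 9 of 18 cytosolic enzymes were called higher and none lower (2 at an unadjusted p under 0.05), against 18.8% higher and 18.7% lower over all genes. With the block, Nars and Tars were also called lower (-0.20 and -0.15) and Qars higher (0.13). Day 8 was then left out, a choice made after seeing the data. Averaged over days 1, 3 and 5 alone, 9 mitochondrial enzymes were higher, while 4 cytosolic ones were higher (Farsa, Farsb, Hars and Kars) and 3 lower (Cars, Nars and Tars), against 14.6% of all genes higher and 13.5% lower. Lars went from 0.24 with day 8 to -0.02 without it. Of the averaged calls, 17 of 22 held without each of the 16 arrays in turn. Those of Cars2, Hars2, Lars, Vars and Wars were each lost without 8 or more of the arrays, with values of 0.12 to 0.55.

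**Figure D2:**
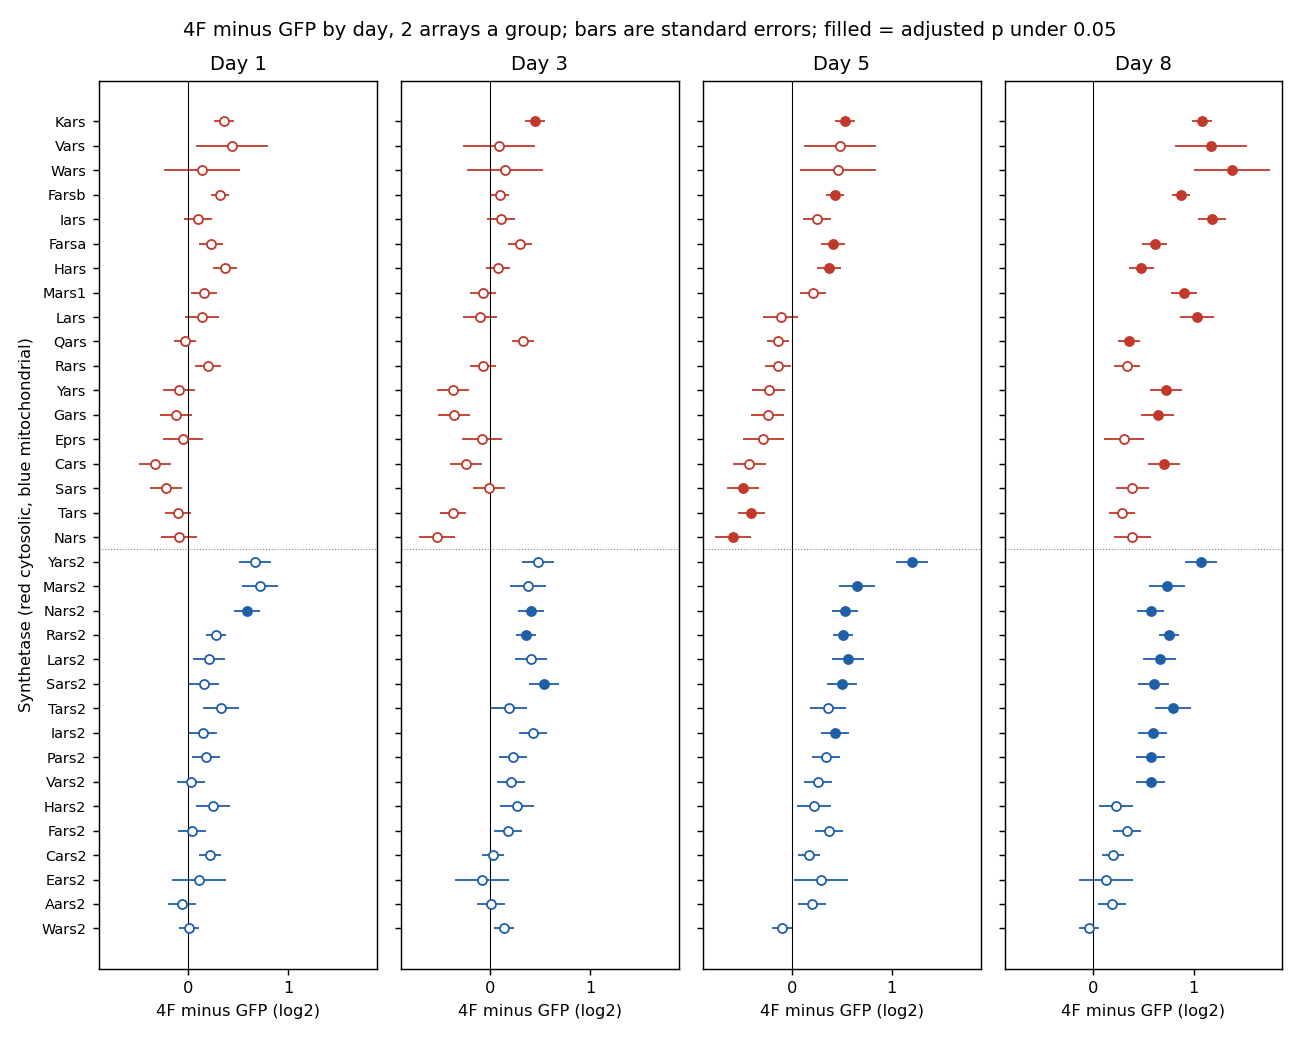
Difference 4F minus GFP (log2) of each synthetase on days 1, 3, 5 and 8, with 2 arrays a group; bars are standard errors and filled points have an adjusted p under 0.05. The cytosolic enzymes (red) scatter to both sides of 0 up to day 5, with 3 called lower, and all 18 lie above 0 on day 8.

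The growth of the difference from day 1 to day 8 was tested as a contrast of its own. It was called in 7 cytosolic enzymes (Cars, Farsb, Iars, Kars, Lars, Mars1 and Yars) and 1 mitochondrial enzyme (Rars2), all upward, against 3.92% of all genes upward and 4.57% downward. All 18 cytosolic values were positive, with a median of 0.66, against 12 of 16 mitochondrial ones with a median of 0.35. The calls of Cars, Iars and Kars held when each of the 8 arrays was left out in turn. Farsb was lost without 4F replicate 1 (0.49) or GFP replicate 2 (0.51) of day 1 or 4F replicate 2 of day 8 (0.44). Lars, Mars1, Rars2 and Yars were each lost without 6 or 7 of the 8 arrays, with values of 0.32 to 0.94. With the replicate number as a block Gars (0.76) and Vars2 (0.54) were called as well.

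Among the complex enzymes, Kars, which charges lysine, had a signal above GFP on days 1, 3, 5 and 8, with a gap that was larger on day 8 than on day 1. On day 1 its signal was 9.80 and 9.63 in 4F against 9.34 and 9.36 in GFP. By day 8 the 4F arrays stood at 9.73 and 9.80 and the GFP arrays at 8.64 and 8.73. Over days 1, 3, 5 and 8 the 8 arrays of 4F ranged from 9.61 to 9.81 and those of GFP from 8.64 to 9.36, without overlap. Kars was 2.11-fold higher in 4F on day 8 (1.08 ± 0.10, adjusted p 2.4e-06). It was also called on days 3 and 5, at 0.45 and 0.53, the former not without replicate 1 of 4F (0.38) or of GFP (0.38).

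Iars, the isoleucyl enzyme of the complex, showed its gap late. Its arrays gave 10.22 and 10.41 in 4F and 10.32 and 10.12 in GFP on day 1, where the groups overlapped. On day 8 the 4F arrays stood at 10.22 and 10.08, far above the GFP arrays at 8.98 and 8.96. The difference of 1.18 ± 0.14 (adjusted p 1.6e-05) was 2.27-fold. Lars (leucine) gave 9.64 and 9.54 against 8.55 and 8.58 on day 8. Mars1 (methionine) gave 9.79 and 9.76 against 8.83 and 8.91. In both enzymes the 4F arrays lay above the GFP arrays by far more than the replicates differed, with differences of 1.03 ± 0.17 and 0.90 ± 0.13.

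The remaining complex enzymes differed less. Qars (glutamine) was called on day 8 at 0.36 ± 0.11, but not without 4F replicate 2 (0.21), GFP replicate 1 (0.34) or GFP replicate 2 (0.39) of that day. Rars (arginine) was at 0.34 ± 0.13, with an adjusted p of 0.069, and of 0.033 with the replicate number as a block. Eprs, which joins a glutamyl and a prolyl enzyme in 1 protein, was at 0.31 ± 0.20 (adjusted p 0.31). Its GFP arrays were far apart on days 1 (10.08 and 9.51) and 3 (9.92 and 9.39). In all, 5 of 7 complex enzymes were called on day 8 with a median difference of 0.90, and 8 of 11 cytosolic enzymes outside it with a median of 0.64.

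Of the free-standing cytosolic enzymes, Farsa and Farsb encode the subunits of the phenylalanyl enzyme. Farsb gave 9.34 and 9.55 in 4F on day 8 and 8.58 and 8.56 in GFP, a difference of 0.87 ± 0.09 (adjusted p 3.8e-06). Farsa gave 8.60 and 8.39 against 7.92 and 7.84, a difference of 0.61 ± 0.12. Neither subunit overlapped between the groups on that day. Both were also called higher on day 5, at 0.43 for Farsb and 0.41 for Farsa. The day 5 call of Farsa was lost without 4F replicate 1 (0.26) or GFP replicate 2 (0.32).

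Wars, the tryptophanyl enzyme and a known interferon-responsive gene, had the widest gap of all members on day 8 and a wide spread. Its 4F arrays gave 8.84 and 10.01 (replicates 1 and 2), and its GFP arrays 7.99 and 8.10. On day 6 the 4F replicates were 9.22 and 10.49. Replicate 2 was the higher of the 4F pair on each of days 1 to 8 measured, except day 2. The difference of 1.38 ± 0.38 on day 8 was called (adjusted p 0.013), but not without 4F replicate 2, where it was 0.79, nor without GFP replicate 1, where it was 1.32. On day 8 minus day 0 in 4F Wars had the highest cytosolic value, 0.30 ± 0.38, not called. Vars (valine) spread the other way, with 9.58 and 8.68 in 4F against 8.17 and 7.75 in GFP. Its difference of 1.17 ± 0.36 was lost without 4F replicate 1 (0.72) or GFP replicate 2 (0.96).

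Several free-standing enzymes had lower values in 4F than in GFP on day 5 and higher values on day 8. Nars, which charges asparagine, gave 10.71 and 10.73 in 4F and 11.09 and 11.50 in GFP on day 5, a difference of -0.58 ± 0.18 (adjusted p 0.034). On day 8 its arrays were 10.51 and 11.02 against 10.28 and 10.48, a difference of 0.39 ± 0.18 that was not called (adjusted p 0.14, and 0.049 with the replicate number as a block). The groups did not overlap on either day, and their order had turned. Tars (threonine) gave 8.91 and 8.90 in 4F on day 5 against 9.22 and 9.39 in GFP, and 8.61 and 8.99 against 8.47 and 8.55 on day 8. Sars (serine) stood at 10.37 and 10.50 against 10.71 and 11.13 on day 5 and at 10.36 and 10.63 against 10.07 and 10.14 on day 8. Both therefore turned in the same way as Nars. The day 5 differences were -0.40 ± 0.13 for Tars and -0.48 ± 0.16 for Sars, and those of day 8 were 0.29 and 0.39, neither called (adjusted p 0.13 and 0.097, the latter 0.042 with the block). The day 5 calls of all 3 were lost without GFP replicate 2, where Nars was -0.37, Sars -0.27 and Tars -0.32. They were also lost without either 4F array (-0.40 to -0.59), and that of Tars without GFP replicate 1 (-0.49). After normalizing the arrays again by quantiles, no cytosolic enzyme was called lower on day 5.

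Cars (cysteine) gave 8.92 and 8.93 against 9.05 and 9.64 on day 5, a difference of -0.42 ± 0.16 (adjusted p 0.072, and 0.027 with the block). On day 8 it gave 8.88 and 9.25 against 8.26 and 8.46, a called difference of 0.70 ± 0.16. Yars (tyrosine) and Gars (glycine) also had values below 0 on days 1, 3 and 5, without a call, and were called higher on day 8, at 0.72 ± 0.16 and 0.64 ± 0.16. The 4F arrays of Yars gave 9.30 and 9.06 on day 5 against 9.38 and 9.44 in GFP, and 9.40 and 9.09 against 8.71 and 8.34 on day 8. Gars gave 10.43 and 10.19 in 4F against 10.40 and 10.70 in GFP on day 5, and 10.46 and 10.35 against 9.70 and 9.82 on day 8. The turn from day 5 to day 8 was not itself tested in any of these enzymes. Hars (histidine) stayed above 0 on all 4 days and was called on days 5 and 8, at 0.37 ± 0.12 and 0.48 ± 0.12. Its day 5 call was lost without any 1 of the 4 arrays (0.33 to 0.41). On day 8 the call of Hars was lost without 4F replicate 1 (0.44), and that of Gars without 4F replicate 1 (0.59) or GFP replicate 1 (0.58). Those of Cars, Farsa, Farsb, Iars, Kars, Lars, Mars1 and Yars held without each array in turn.

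Synthetase genes of the cytosol are known targets of the amino acid response, in which ATF4 and a partner bind a short element, and of c-Myc, which binds the E-box. The stretches before the annotated start were searched for the element's core TGATGNAA and for the E-box CACGTG, on both strands. A start was matched for 11 cytosolic and 14 mitochondrial enzymes. Those of Cars, Pars2, Rars, Vars and Wars were not matched, and those of Hars, Hars2, Lars and Nars are not analysed here. The core stood in 2 of the 11 cytosolic stretches, those of Gars and Tars, and in 3.45% of all 32851 stretches of 250 bases. The E-box stood in another 2, those of Farsb and Iars, and in 6.02% of all. In the mitochondrial stretches neither run of letters was found (0 of 14). The other 7 cytosolic stretches, those of Eprs, Farsa, Kars, Mars1, Qars, Sars and Yars, held neither. The 4 stretches with a match are shown so that it can be read in place. They are the 250 bases before the start, 5′ to 3′ on the strand of the gene, from RefSeq on GRCm38.p6, with the matched letters in capitals.
Gars, chr6:55037751-55038000, plus strand: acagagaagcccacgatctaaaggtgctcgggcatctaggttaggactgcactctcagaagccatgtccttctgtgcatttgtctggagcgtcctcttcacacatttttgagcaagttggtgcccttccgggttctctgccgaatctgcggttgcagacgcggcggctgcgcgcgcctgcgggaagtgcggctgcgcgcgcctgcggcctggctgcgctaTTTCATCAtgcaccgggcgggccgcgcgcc
Tars, chr15:11399659-11399908, minus strand: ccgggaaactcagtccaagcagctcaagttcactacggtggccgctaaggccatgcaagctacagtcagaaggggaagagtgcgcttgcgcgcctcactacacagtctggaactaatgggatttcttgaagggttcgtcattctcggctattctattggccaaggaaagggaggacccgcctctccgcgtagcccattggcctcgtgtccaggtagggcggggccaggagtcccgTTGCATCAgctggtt
Farsb, chr1:78488898-78489147, minus strand: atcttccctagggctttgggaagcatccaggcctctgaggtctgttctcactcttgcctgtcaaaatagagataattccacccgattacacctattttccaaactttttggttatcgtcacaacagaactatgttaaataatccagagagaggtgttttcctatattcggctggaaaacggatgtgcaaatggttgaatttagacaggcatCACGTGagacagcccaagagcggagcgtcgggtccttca
Iars, chr13:49681880-49682129, plus strand: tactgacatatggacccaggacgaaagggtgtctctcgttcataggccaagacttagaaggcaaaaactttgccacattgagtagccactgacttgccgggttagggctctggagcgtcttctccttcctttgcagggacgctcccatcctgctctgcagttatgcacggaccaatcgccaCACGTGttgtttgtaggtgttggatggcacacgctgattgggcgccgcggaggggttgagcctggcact
The core starts 30 bases before the start of Gars and 15 before that of Tars, and the E-box 39 bases before Farsb and 69 before Iars. A match describes letters and is not a binding site.

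The mitochondrial enzymes had mostly positive 4F minus GFP values from day 1, in 15 of 16. Nars2 gave 7.24 and 7.14 in 4F on day 1 against 6.47 and 6.74 in GFP, a difference of 0.59 ± 0.13 (adjusted p 0.029). Its 8 arrays of 4F from days 1, 3, 5 and 8 ran from 6.90 to 7.38 and those of GFP from 6.34 to 6.84, without overlap. Averaged over the days Nars2 was higher by 0.52 ± 0.06. The day 1 call was lost without 4F replicate 1 (0.54), 4F replicate 2 (0.64) or GFP replicate 1 (0.45), and the average held without each array.

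Yars2, the mitochondrial tyrosyl enzyme, showed the largest averaged difference of all 34 members, 0.86 ± 0.08 (adjusted p 9.2e-07). Its arrays gave 8.16 and 8.02 in 4F and 7.35 and 7.49 in GFP on day 1, and 8.47 and 8.32 against 7.38 and 7.00 on day 5. The day 5 difference of 1.20 ± 0.16 was 2.30-fold. All GFP arrays lay below the day 0 arrays (7.94 and 8.05), and all 4F arrays up to day 8 lay at 7.91 or above. In 4F on days 10 and 12, with 1 array each, Yars2 was 7.15 and 7.17, below the earlier 4F arrays and near the GFP array of day 12 at 6.85.

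Mars2 (methionine) had the largest difference of any member on day 1, 0.72 ± 0.18, with 7.74 and 7.59 against 6.80 and 7.08. It was not called that day (adjusted p 0.057, and 0.035 with the block) but was on days 5 and 8, at 0.65 and 0.73. It had the lowest mitochondrial value in 4F on day 8 minus day 0, -0.07 ± 0.18, not called. On day 12 its single arrays were 6.55 in 4F and 6.48 in GFP. Rars2 (arginine) was at 0.28, 0.36, 0.51 and 0.75 on days 1, 3, 5 and 8, of which the last 3 were called. Its 4F arrays gave 7.78 and 8.10 on day 8 against 7.19 and 7.18 in GFP. The 8 arrays of each arm did not overlap (7.73 to 8.19 in 4F and 7.18 to 7.60 in GFP). Iars2 (isoleucine) was also free of overlap, at 8.19 to 8.56 in 4F and 7.63 to 8.07 in GFP. The members without overlap of the 8 arrays were Iars2, Kars, Nars2, Rars2 and Yars2. The share of all genes without overlap is not given here, so their number is not read as a result.

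Tars2 (threonine) gave 8.74 and 8.33 on day 8 against 7.86 and 7.63, and Lars2 (leucine) gave 7.38 and 7.34 against 6.97 and 6.43. The groups did not overlap, and the differences were 0.79 ± 0.18 and 0.66 ± 0.16. Sars2 (serine), Iars2, Pars2 (proline) and Vars2 (valine) were called on day 8 at 0.60, 0.59, 0.57 and 0.57. The day 8 calls of Iars2, Nars2, Rars2 and Yars2 held without each array in turn. Without 4F replicate 1 those of Mars2 (0.63), Pars2 (0.33), Sars2 (0.53), Tars2 (0.59) and Vars2 (0.43) were lost. So were Mars2 (0.48) and Pars2 (0.45) without GFP replicate 1, and Lars2 (0.39) without GFP replicate 2.

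A few mitochondrial enzymes showed small differences. Wars2, for tryptophan, lay between -0.10 and 0.14 on the 4 days, and its 8 arrays of 4F (6.66 to 6.96) overlapped with those of GFP (6.65 to 6.92). Aars2 (alanine) gave 6.86 and 6.72 in 4F against 6.88 and 6.82 in GFP on day 1, and 7.13 and 6.74 against 6.76 and 6.73 on day 8. Ears2 (glutamate) gave 6.69 and 6.24 in 4F and 6.57 and 6.11 in GFP on day 8, with replicate 1 the higher in each pair. Cars2 (cysteine), Hars2 (histidine) and Fars2 (phenylalanine) were called against GFP in the average of the days alone, at 0.16, 0.24 and 0.23. With the block Fars2 was also called on days 5 and 8 (0.37 and 0.34), and Vars2 on day 5 (0.26).

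Comparison with day 0 shows how each arm moved, and both arms use the same 2 day 0 arrays. In GFP no member was called on day 1 (0.0401% of all genes higher and 0.0502% lower) or on day 3 (0.727% and 0.326%). The unadjusted p was under 0.05 for 6 members on day 1 and 5 on day 3, and the shares just given do not apply to that threshold. With the replicate number as a block Farsb was called lower on both days (adjusted p 0.048 and 0.0091). On day 5, 5 members had fallen (Farsb, Hars, Kars, Mars2 and Yars2) and none had risen, against 4.83% of all genes lower and 5.74% higher. Of these the call of Farsb held without each array, that of Yars2 was lost without GFP replicate 2 (-0.62), and the other 3 without any 1 of the 4 arrays (-0.72 to -0.31). By day 8 this was 21 lower and none higher (0 at an unadjusted p under 0.05), against 11.2% lower and 8.92% higher. They were 14 of 18 cytosolic enzymes, with a class median of -0.91, and 7 of 16 mitochondrial ones, with a median of -0.23. All genes had a median of 0.02.

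Iars fell furthest in GFP, from 10.16 and 10.24 on day 0 to 8.98 and 8.96 on day 8, by 1.23 on the log2 scale (adjusted p 2.5e-05). Cars dropped from 9.52 and 9.46 to 8.26 and 8.46, and Farsb from 9.58 and 9.65 to 8.58 and 8.56. In these 3 enzymes the GFP arrays lay below the day 0 arrays by far more than either pair differed. Nars went from 11.38 and 11.41 to 10.28 and 10.48, and Tars from 9.46 and 9.41 to 8.47 and 8.55. Wars was at -1.07 ± 0.38 (9.14 and 9.09, then 7.99 and 8.10), with an adjusted p of 0.064 and of 0.024 with the block. Among mitochondrial enzymes Yars2 fell most, to 7.02 and 6.92, by 1.03 on the log2 scale. Fars2, Ears2, Lars2 and Wars2 had values above 0 (0.26, 0.04, 0.02 and 0.01), none of them called.

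Of these 21 falls, 14 held without each of the 4 arrays in turn. The fall of Mars2 was lost without GFP replicate 1 (-0.56), and those of Iars2, Pars2, Rars2, Sars2, Tars2 and Vars without 3 or 4 of the arrays (-1.30 to -0.33). With the block Qars (-0.28) and Sars (-0.43) were called lower on day 8, and Farsa (-0.38) and Rars (-0.37) on day 5. The synthetases fell together with cycling cell markers in GFP. All 7 such markers were called lower on day 8, and the mean over the list was 9.37 and 9.40 in the day 0 arrays, 7.22 and 7.82 in GFP and 9.44 and 9.61 in 4F on day 8. Of the 8 fibroblast markers 5 were called higher and none lower in GFP on that day, with means of 12.35 and 12.37. Epithelial markers had means of 6.04 and 6.18 on day 0, 6.00 and 6.00 in GFP and 6.35 and 8.07 in 4F. Macrophage, endothelial and keratinocyte lists had means between 5.37 and 6.13 in these groups. The part of cell cycling in the result was not tested.

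**Figure D3:**
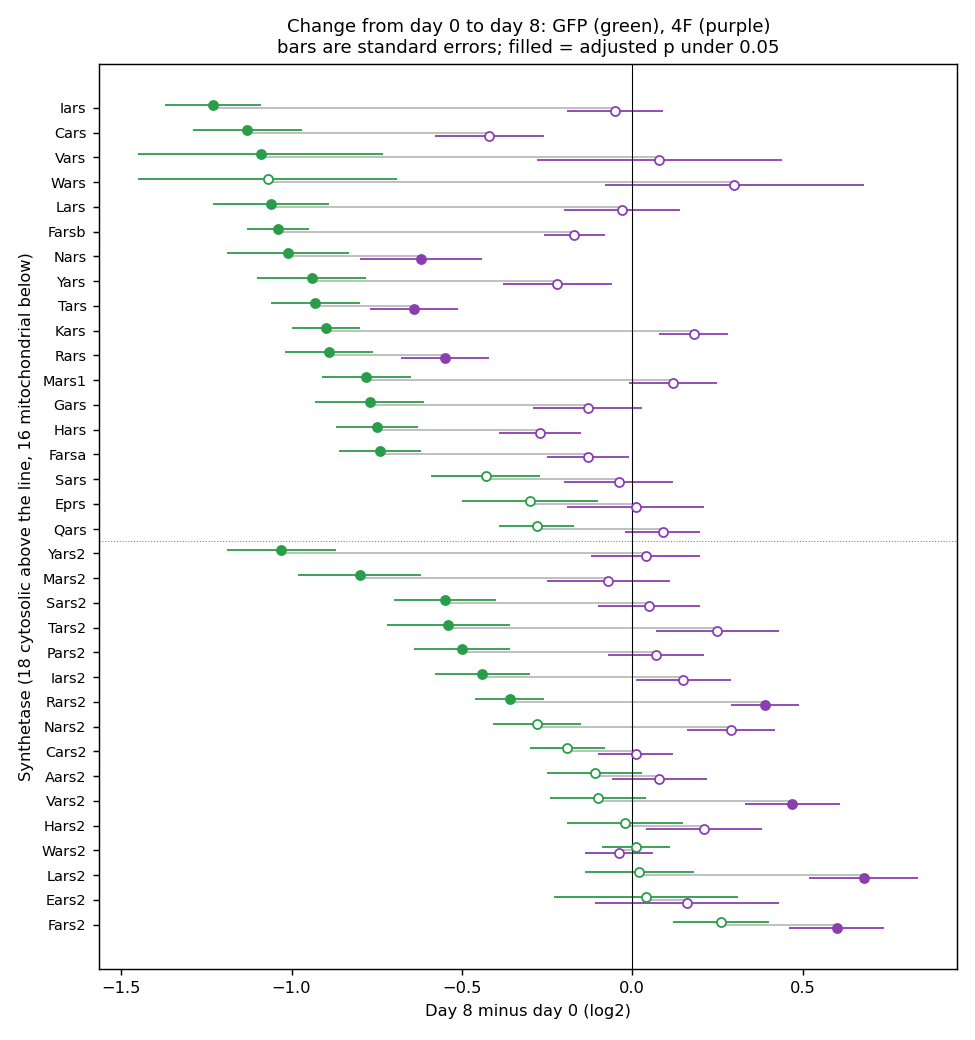
Day 8 minus day 0 (log2) of each synthetase in GFP (green) and 4F (purple), with standard errors; filled points have an adjusted p under 0.05. In GFP 14 of 18 cytosolic enzymes are called lower and in 4F 3 (Nars, Rars and Tars), while 4 mitochondrial enzymes are called higher in 4F.

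In 4F cells few members were called against day 0. The counts are given beside the shares of all genes and are not read as a result about the members. None was called on day 1 (0.512% of all genes higher and 0.326% lower), where 4 members had an unadjusted p under 0.05 and none was called with the block. On day 3 Nars2 was higher and Rars and Tars lower, against 4.6% and 3.93% of all genes. With the block this count rose from 3 to 9 (all genes, 13.7% in either direction), adding Fars2, Lars2 and Rars2 higher and Cars, Farsb and Nars lower. On day 5 there were 4 higher (Fars2, Lars2, Nars2 and Rars2) and 4 lower (Cars, Nars, Rars and Tars), against 6.47% and 7.08%. On day 8 there were 4 higher (Fars2, Lars2, Rars2 and Vars2) and 3 lower (Nars, Rars and Tars), against 7.39% and 8.51%, and with the block Cars was called lower as well (-0.42).

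Tars gave 9.46 and 9.41 on day 0, and on day 2 its 4F arrays gave 8.82 and 8.89 against 9.26 and 9.43 on day 1. It lay below the day 0 mean in the 12 arrays of days 2 to 8, at -0.83 to -0.37, and was -0.64 ± 0.13 on day 8. Nars went from 11.02 and 11.33 on day 1 to 10.66 and 10.68 on day 2, and lay at -0.88 to -0.34 against its day 0 mean in these 12 arrays. Cars, Gars, Rars and Yars were also below it in all 12. Lars2 went the other way, from 6.60 and 6.76 on day 0 to 7.42 and 7.23 on day 2 and 7.38 and 7.34 on day 8 (0.68 ± 0.16). Fars2 gave 6.86 and 6.82 on day 0, 7.28 and 7.43 on day 2 and 7.52 and 7.37 on day 8 (0.60 ± 0.14). Fars2, Iars2, Kars, Lars2, Nars2, Rars2, Tars2 and Vars2 were above their day 0 mean in all 12 arrays, and Kars was the single cytosolic enzyme among them. All 12 arrays were set against the same 2 day 0 arrays. The share of all genes above or below day 0 in all 12 is not given here, so these numbers of enzymes are not read as a result. Days 2, 4 and 6 have no GFP arrays.

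The calls against day 0 in 4F rested on few arrays. None of the 3 on day 3 held without each array in turn (-0.56 to 0.52 where lost), and of the 8 on day 5 that of Rars2 did (the others, -0.69 to 0.68 where lost). On day 8 none of 7 held: without 4F replicate 1 those of Nars (-0.37), Tars (-0.44), Rars (-0.49), Fars2 (0.52) and Vars2 (0.33) were lost. That of Rars2 was lost without 4F replicate 2 (0.23), and those of Lars2 (0.60), Nars, Rars, Rars2 and Vars2 without day 0 replicate 1. Without day 0 replicate 2, Fars2 (0.58), Nars and Vars2 were lost. Normalizing the arrays again by quantiles ended the day 8 calls of Nars (-0.37) and Rars (-0.31) and moved the cytosolic median of day 8 from -0.09 to 0.09.

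The enzymes of 12 amino acids could be compared as cytosolic and mitochondrial pairs. The mitochondrial member had the higher 4F minus GFP difference in 9 of 12 pairs on day 1, 11 on day 3, 9 on day 5 and 5 on day 8. The median gap between pair members, mitochondrial minus cytosolic, was 0.22, 0.44, 0.62 and -0.22. These gaps were not tested. Averaged over the days, the pairs furthest apart in that direction were those of tyrosine, asparagine and threonine. They were picked by this gap, which favours a call in 1 member alone. Yars averaged 0.01 ± 0.08 and Yars2 0.86 ± 0.08. Nars averaged -0.20 ± 0.09 and Nars2 0.52 ± 0.06, and Tars -0.15 ± 0.07 and Tars2 0.42 ± 0.09. In these 3 pairs the mitochondrial member was called and the cytosolic one was not (adjusted p 0.97, 0.099 and 0.11; with the block 0.032 for Nars and 0.044 for Tars).

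**Figure D4:**
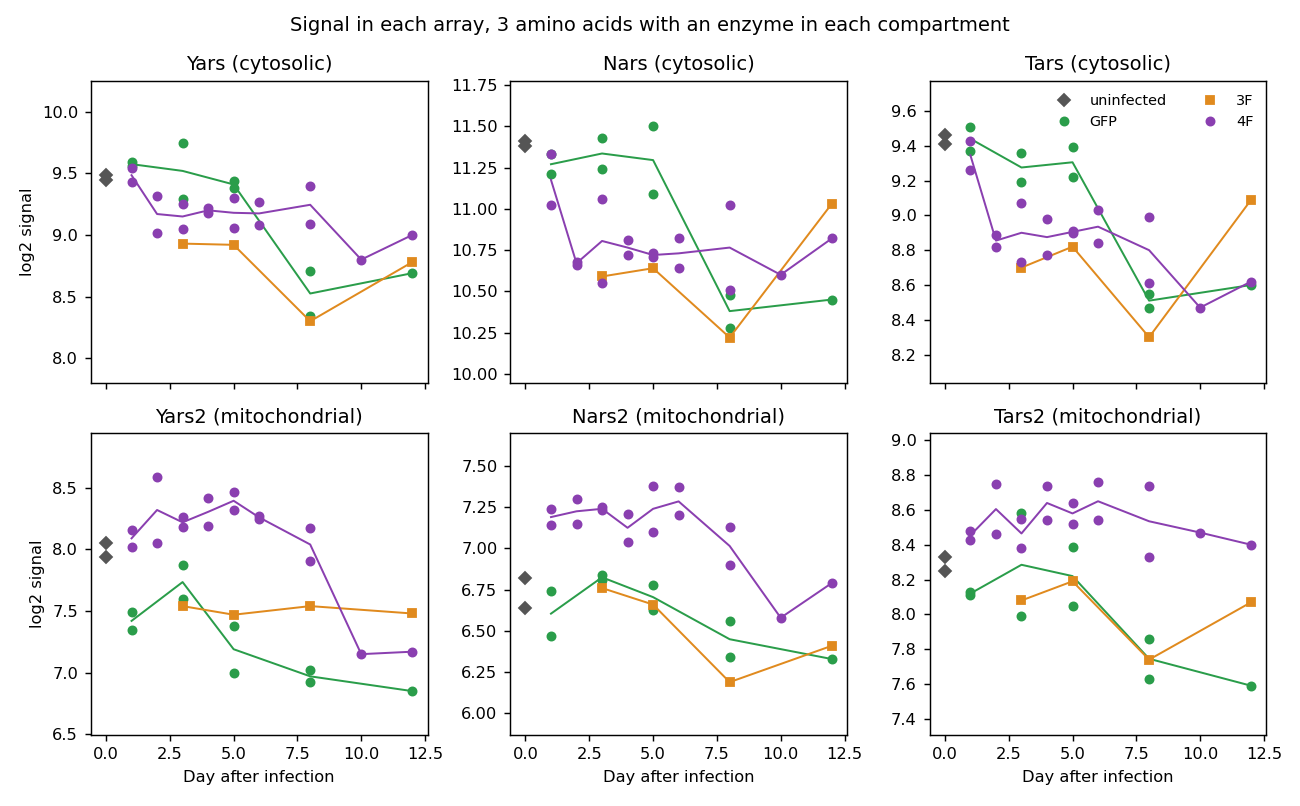
Log2 signal in each array for 3 cytosolic enzymes (top) and the mitochondrial enzymes for the same amino acids (bottom), against day after infection; points are arrays, lines join means, and both plots of a pair span the same range of log2. On day 5 Nars is at 10.71 and 10.73 in 4F (purple) and 11.09 and 11.50 in GFP (green), while Nars2 and Yars2 lie above GFP on days 1, 3, 5, 8 and 12.

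The arm labelled 3F received no c-Myc and has 1 array a day, so the days stood in for replicates in an additive fit of arm and day. In that fit 9 members were higher in 4F than in 3F and none lower (0 at an unadjusted p under 0.05), against 3.87% of all genes higher and 5.77% lower. They were Eprs, Farsa, Kars and Vars of the cytosolic and Aars2, Iars2, Lars2, Nars2 and Vars2 of the mitochondrial enzymes. The class medians were 0.35 and 0.38. Against GFP, Wars (0.84 ± 0.26) and Hars (0.34 ± 0.11) were higher in 3F and Eprs lower (-0.45 ± 0.13), against 9.47% and 8.82% of all genes. The class medians there were -0.14 and 0.04. Both comparisons use the same 3F arrays.

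Vars, with the highest value against 3F (0.79 ± 0.23), gave 8.37, 8.22, 7.95 and 7.99 in 3F on days 3, 5, 8 and 12. Its 4F arrays gave 9.27 and 8.96 on day 3, 9.42 and 8.89 on day 5, 9.58 and 8.68 on day 8 and 8.18 on day 12, above 3F on each day. Kars gave 8.97, 9.16, 8.79 and 9.54 in 3F, and its 4F value of day 12 was 9.74. Nars2 gave 6.76, 6.66, 6.19 and 6.41 in 3F against 6.79 in 4F on day 12 (0.57 ± 0.08 in the fit). The 4F arrays of Kars and Nars2 lay above the 3F array on each of the 4 days.

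Wars had the lowest value against 3F (-0.21 ± 0.26, not called). It gave 9.18, 9.48, 9.26 and 9.51 in 3F, above the GFP arrays of each of these days. Eprs gave 9.12, 9.22, 8.81 and 9.06 in 3F, below the GFP arrays of each day, though on day 12 the difference was only -0.01. Ears2 had the lowest mitochondrial value against GFP (-0.29 ± 0.13, not called), at 6.05, 5.88, 6.01 and 6.08 in 3F.

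The difference between 4F and 3F was not the same size on all days. On day 8 all 34 members were higher in 4F, with class medians of 0.66 and 0.50. On day 12 4F, 3F and GFP each have 1 array, without a replicate number. There 9 of 18 cytosolic and 8 of 16 mitochondrial enzymes were higher in 4F than in 3F, with medians of 0.06 and 0.00. There 3F exceeded GFP in 17 of 18 cytosolic enzymes (median 0.50) and 11 of 16 mitochondrial ones (median 0.16). On the same day 4F exceeded GFP in 18 and 11 (medians 0.52 and 0.26). Over all genes the median of 4F minus 3F was 0.02 on day 8, and the medians of day 12 lay between -0.01 and 0.0. These single arrays carry no test. The share of all genes with a positive difference is not given here, so the numbers of enzymes above 0 are not read as a result. Of the cycling cell markers, 7 of 7 were called higher in 3F than in GFP, with a median of 1.11, and 0 of 7 between 4F and 3F, with a median of 0.23.

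All 3F arrays lack a replicate number, and the 4F and GFP arrays of days 3, 5 and 8 have one. The labels do not say whether the arrays without a number were labelled together. If they were, set and arm can be told apart on day 12 alone. With the replicate number as a block none of the 9 calls against 3F remained (all genes, 0.0702% in either direction), and the values were 0.06 for Kars, 0.21 for Vars, 0.39 for Nars2 and -0.08 for Farsa. Farsa, Farsb and Rars2 were then called higher in 3F than in GFP (0.51, 0.95 and 0.75), Wars stayed called, and Eprs (-0.07) and Hars (0.63) did not. Without day 8, Nars2 alone stayed called against 3F (0.48; all genes, 0.898%) and no call remained against GFP (all genes, 10.7%). On days 3, 5 and 8 alone, 17 members were called between 4F and 3F (all genes, 15.1%). The calls of Iars2 and Nars2 held without each of the 11 arrays in turn. Leaving out the 3F array of day 3, 5 or 8 ended those of Aars2, Eprs, Farsa, Kars, Lars2 and Vars, and that of day 5 or 8 the call of Vars2, so that 2 or 3 calls remained. Without the 3F array of day 12 there were 16. Single 4F arrays also ended calls of Aars2, Eprs, Farsa, Lars2 and Vars. Values where a call was lost ran from 0.26 to 0.81. The calls of Eprs, Hars and Wars against GFP were each lost without 7 or more of the 11 arrays, the 3F array of day 5 among them, where the values were -0.42, 0.31 and 0.91.

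**Figure D5:**
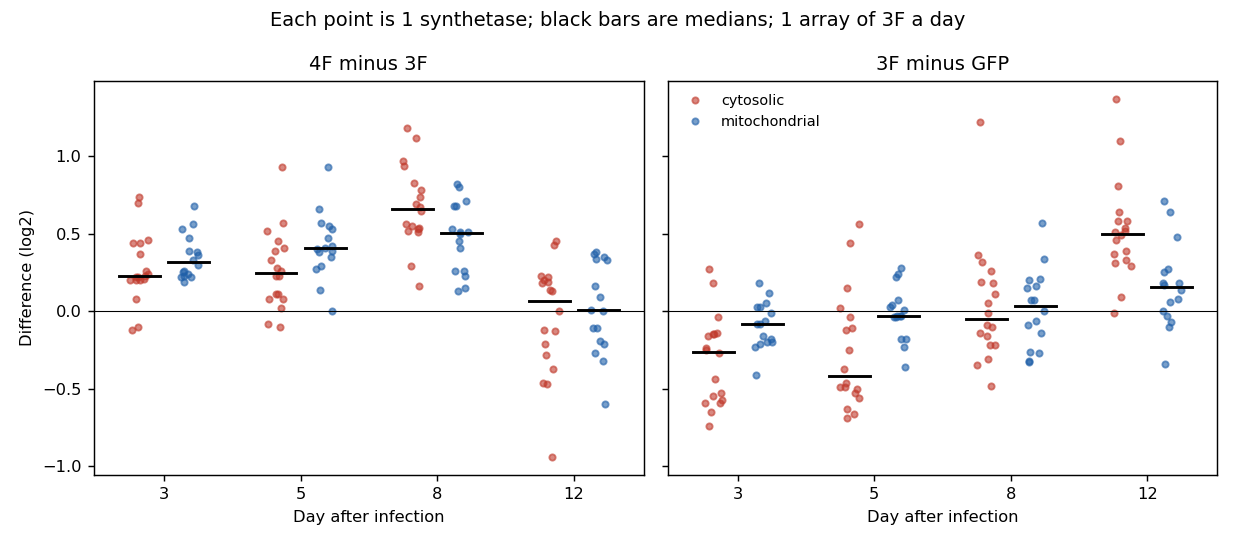
Difference between arms (log2) of each cytosolic (red) and mitochondrial (blue) synthetase on days 3, 5, 8 and 12; each point is 1 enzyme, black bars are class medians, and 3F has 1 array a day. The 4F minus 3F medians (left) are 0.66 and 0.50 on day 8 and 0.06 and 0.00 on day 12.

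Genes that work with the synthetases were taken from lists and compared on day 8, 4F against GFP, where 14.5% of all genes were called higher and 13.0% lower. The 3 scaffold genes of the multisynthetase complex, Aimp1, Aimp2 and Eef1e1, were all higher (0.73, 0.97 and 1.53), and all 3 had fallen in GFP since day 0 (-0.87, -1.26 and -1.65). Of 25 genes of tRNA maturation and export, 16 were higher and none lower on day 8, with a median of 0.76. Among them Nsun2, a tRNA methyltransferase, was higher by 1.17 ± 0.17, Elac2, which trims tRNA ends, by 0.92 ± 0.16, and Rpp40, a subunit of RNase P, by 1.11 ± 0.23. On day 1, 6 of these 25 were called higher, against 1.42% of all genes. Of 14 mitochondrial translation factors, 8 were higher and none lower (median 0.51), with the elongation factor Tufm at 0.88, Guf1 at 0.80 and Gatc at 1.11. Of 6 genes listed for cytosolic elongation, 3 were higher (median 0.27), namely Eef1b2 (0.52), Eef1d (0.93) and Eef2k (1.16). Of these Eef2k is a regulatory kinase and not itself an elongation factor. Of 7 related proteins, 5 were higher and 1 lower, among them Aarsd1 (1.14) and Dtd1 (0.54), which are known to remove wrongly placed amino acids from tRNA. Tarsl2, a gene close to Tars in sequence, was higher by 1.21 ± 0.19 where Tars was at 0.29 ± 0.13, and whether their probe sets share signal was not tested.

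Genes of the amino acid response were taken from another list. Of 26 measured, 11 were lower and 1 higher in 4F than in GFP on day 5 (median -0.58; all genes, 10.9% and 10.5%), and 11 were higher and 3 lower on day 8 (median 0.47; all genes, 14.5% and 13.0%). The change between these days was not tested. Aldh1l2, an enzyme of mitochondrial folate metabolism, was at -3.02 ± 0.47 on day 5 and -1.44 ± 0.47 on day 8. Cebpb, a transcription factor of stress responses, was lower on both days (-1.20 and -1.82), and Cth, which makes cysteine, was higher on both (1.75 and 3.06). In GFP, 8 of the 26 had fallen and 3 had risen from day 0 to day 8, against 11.2% and 8.92% of all genes.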

How the data were processed

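RNA of mouse embryonic fibroblasts was measured on 31 single-colour Affymetrix gene arrays. The authors deposited 1 table of log2 signals (4.27 to 14.3, array medians 6.04 to 6.17), and its background correction and normalization are not given in the sources used here. Depth has no meaning for arrays. Of 28853 rows, 21789 had 1 gene symbol in the platform annotation, 1621 several and 5443 none. Rows with 1 symbol gave 19938 genes, each by its row of highest mean.

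Samples were grouped by the labels into 19 groups, 12 of 2 arrays and 7 of 1. Differences were tested with limma 3.58.1 (R 4.3.3) on the values as deposited, with 1 mean per group (12 residual degrees of freedom, moderated over genes), and for 3F with an additive fit of arm and day over 18 arrays. P-values were adjusted by Benjamini and Hochberg over all genes, two-sided, and called under 0.05. The fit was tested on simulated data with 200 changed genes.

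The labels tie replicate 1 to 120 ng of RNA for labelling and replicate 2 to 300 ng, so the number marks a labelling set, and same-numbered arrays deviated together (r 0.081 to 0.686 over 66 pairs of groups, 65 of them over 0.1). The fit with the replicate block is an alternative. Others were another choice of rows, a signal minimum of 6, quantile normalization, a variance trend, fewer arrays in the fit and each array left out in turn. Every member was named, with values by array for those of largest absolute averaged difference in each class, highest or lowest in a contrast, or in the 3 pairs furthest apart, and for others chosen after their values were seen. Of each other list the 3 genes with the largest averaged difference between 4F and GFP were named, in either direction (all 4 of the delivered factors). Members and lists were chosen with earlier results of these data known. Promoter sequences come from RefSeq, matched by symbol.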

Additional observations from a re-analysis of the deposited data

Results flagged for a closer look

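In 8 enzymes the difference between 4F and GFP was itself larger on day 8 than on day 1, by limma's contrast of the change. The change was 1.09 in Iars (adjusted p 0.0032), 1.04 in Cars (0.0086), 0.89 in Lars (0.031), 0.82 in Yars (0.038), 0.74 in Mars1 (0.02), 0.72 in Kars (0.0065), 0.55 in Farsb (0.013) and 0.48 in Rars2 (0.048), on the log2 scale. All but Rars2 are cytosolic enzymes. Over all genes 3.92% were called upward and 4.57% downward. The calls of Cars, Iars and Kars held when each array was left out in turn, and those of the others did not.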

How the results depend on the processing

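Groups hold 1 or 2 arrays, labelled in sets, and how the deposited values were normalized is unknown. Of 128 called values of members, the alternatives other than leaving out an array kept direction and call 684 times, lost the call 113 times and turned the direction 2 times: Lars averaged over days went to -0.02 without day 8, and Farsa in 4F against 3F to -0.08 with the replicate block. Leaving out an array kept the call 603 times and lost it 289 times. The cause of a changed call was not tested, except that fits with fewer arrays have fewer degrees of freedom.

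Counts of members called moved as follows. With the replicate block (paired by number) they were 5 on day 1 and 9 on day 3 for 4F against GFP, 1 on day 1 and 1 on day 3 for GFP against day 0, 9 on day 3 for 4F against day 0, and 0 for 4F against 3F, and no other count moved by over 1.5 times; the single calls it changed stand in the report. With only the arrays of the contrast they were 0, 0, 5 and 10 on days 1, 3, 5 and 8 for 4F against GFP, 4 for the change, and 0 on day 3 and 1 on day 8 for 4F against day 0. A minimum signal of 6 gave 3 on day 1. A variance trend gave 2 on day 3, 9 on day 5 and 5 for 4F against 3F. Quantile normalization gave 5 for 4F on day 3 and 1 for GFP on day 3 against day 0, as did the mean of a gene's rows for the latter (1). Days 3, 5 and 8 alone gave 17 for 4F against 3F and 1 for 3F against GFP. Without day 8, chosen after seeing the data, these were 1 and 0.

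Leaving out 1 array in turn gave, for 4F against GFP, 0 to 1 calls on day 1, 0 to 5 on day 3, 4 to 10 on day 5, 17 to 23 on day 8, 17 to 23 in the average and 3 to 7 for the change. Against day 0 it gave 0 to 0, 0 to 2, 1 to 2 and 14 to 17 for GFP on days 1, 3, 5 and 8, and 0 to 0, 0 to 3, 1 to 3 and 2 to 8 for 4F. It gave 2 to 16 for 4F against 3F and 0 to 3 for 3F against GFP.

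Class medians moved by more than the spread in these cases. For 4F minus GFP, replicate 1 arrays alone gave -0.08 (cytosolic, day 1), 0.14 (cytosolic, day 5) and 0.41 (mitochondrial, day 5), and replicate 2 arrays alone 0.30 and 0.43 (mitochondrial, days 3 and 8). Quantile normalization gave 0.75 for the cytosolic median of day 8. In the average, the cytosolic median was 0.25 with quantile normalization and 0.22 in replicate 2, and the mitochondrial one 0.29 in replicate 2. The mitochondrial change was 0.32 with quantile normalization, 0.27 in replicate 1 and 0.25 in replicate 2. Against day 0, the mitochondrial median in GFP was -0.02 on day 1 (replicate 1) and -0.15 on day 5 (replicate 2). The cytosolic median in 4F was -0.20 on day 3 (replicate 1), 0.00 on day 5 and 0.09 on day 8 with quantile normalization, and -0.13 on day 8 (replicate 2).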
